A study of Mus musculus with 9 samples.

Results

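Integrins, selectins and the immunoglobulin-type adhesion molecules they bind were described in the RNA of the mouse spinal cord on day 7 after contusion. The 33 genes were chosen by name, as the 17 alpha and 8 beta integrin subunits, 4 intercellular adhesion molecules, Vcam1, P-selectin, E-selectin and the selectin ligand Selplg, out of 52550 genes counted. All 33 symbols had a row in the count table, and 31 had enough counts to be tested. Adult female C57BL/6N mice made up 3 groups of 3. The Sham operation was a laminectomy with no contusion, and no vehicle injection is described for these mice. SCI mice (spinal cord injury) received laminectomy, a thoracic contusion and intraperitoneal DMSO, the vehicle. SCI+FIPI mice received the same laminectomy and contusion, and intraperitoneal FIPI, an inhibitor of phospholipase D, from directly after the injury onward. FIPI is 5-fluoro-2-indolyl des-chlorohalopemide, and it was dissolved in DMSO before dilution in saline, so SCI and SCI+FIPI mice share the solvent and Sham differs from both by the injection as well as by the injury.

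An integrin is a heterodimer of an alpha and a beta chain that holds a cell to matrix proteins or to another cell. In the leukocyte adhesion cascade, selectins on inflamed endothelium first catch the ligand PSGL-1, encoded by Selplg, and slow the passing cell. Integrins of the beta 2 family and the alpha 4 integrins then bind ICAM-1 and VCAM-1 on the vessel wall and arrest it. Microglia, which live in the spinal cord, carry beta 2 integrins too, so these genes are known both as markers of resident myeloid cells and as the adhesion machinery of blood leukocytes. Other integrins hold astrocyte endfeet, vessels, Schwann cells and fibroblasts to laminin, collagen and fibronectin.

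Levels are given as CPM, the count scaled to the library total with TMM factors, when a gene is compared between mice. FPKM, which also divides by exonic length, is used when genes are compared with each other. A gene was called changed when its log2 fold change was at least 0.5 in size and edgeR's quasi-likelihood test gave an adjusted p under 0.05. Total counts lay between 20806000 and 24582377 per mouse, and every mouse carried the neuron, astrocyte and oligodendrocyte markers of the labelled tissue. Sham 2, SCI+FIPI 2 and SCI+FIPI 3 held more RNA of the 5 neutrophil granule genes S100a8, S100a9, Camp, Ltf and Ngp than the other 6 mice (102 to 128 CPM in sum against 21.1 to 62.6). A wider list of 10 neutrophil markers, which holds these 5, gave another order. There Sham 2, at 141 CPM in sum, was below the SCI mice at 151 to 155 CPM, and SCI+FIPI 2 and SCI+FIPI 3 were at 222 and 214 CPM. Csf3r of that list averaged 28.6 CPM in Sham, 83.4 CPM in SCI and 74.8 CPM in SCI+FIPI. Nothing in the labels says how tissue pieces or libraries were batched. The labels give the 3 of a group as separate samples and say no more, so a p-value refers to the spread between these samples. In whole tissue, a change in the number of cells of a type and a change in RNA per cell cannot be told apart.

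Injury raised most of these genes. Between SCI and Sham, 24 of the 31 tested were called higher and 0 lower, while 24.4% of all 18699 genes tested were called higher and 22.5% lower. With no limit on the fold change, 26 were higher and 2 lower, beside 6257 higher and 6058 lower among all 18699 genes tested. At an unadjusted p under 0.05, 26 members were higher and 2 lower too, and DESeq2 and limma-voom also called 24 higher and 0 lower. The median log2 fold change of the 31 was 1.27, beside -0.0031 over all genes tested. Itga5 rose furthest, by 3.27 ± 0.17 (SE), and the beta 2 chain Itgb2 next, by 3.01 ± 0.21. Between SCI+FIPI and SCI, 1 of the 31 was called lower and 0 higher, where 0.695% of all genes were called lower and 2.36% higher. That gene was Itga4, the alpha chain of VLA-4. At an unadjusted p under 0.05, 12 were lower and 1 higher. DESeq2 called 5 lower (Itga2, Itga4, Itga5, Itgb2 and Itgb7) and limma-voom 4 (Itga2, Itga4, Itgax and Itgb2), and both called 0 higher. No share over all genes was counted for DESeq2, limma-voom or an unadjusted p, in any comparison. Those counts therefore stand without a reference, for the members and for the other lists. The point estimate was below 0 for 26 of the 31, and for 9407 of all 18699 genes tested. The median of the 31 was -0.18, beside -0.0013 over all genes tested. Neuron markers went the other way, with 15 of 16 called lower with injury and 8 of 16 called higher with FIPI, and sums of 9586, 3619 and 5058 CPM on average in Sham, SCI and SCI+FIPI. Their part in the values of the adhesion genes was not tested. Both comparisons use the same SCI mice, so the values are set side by side with no test between them.

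**Figure D1:**
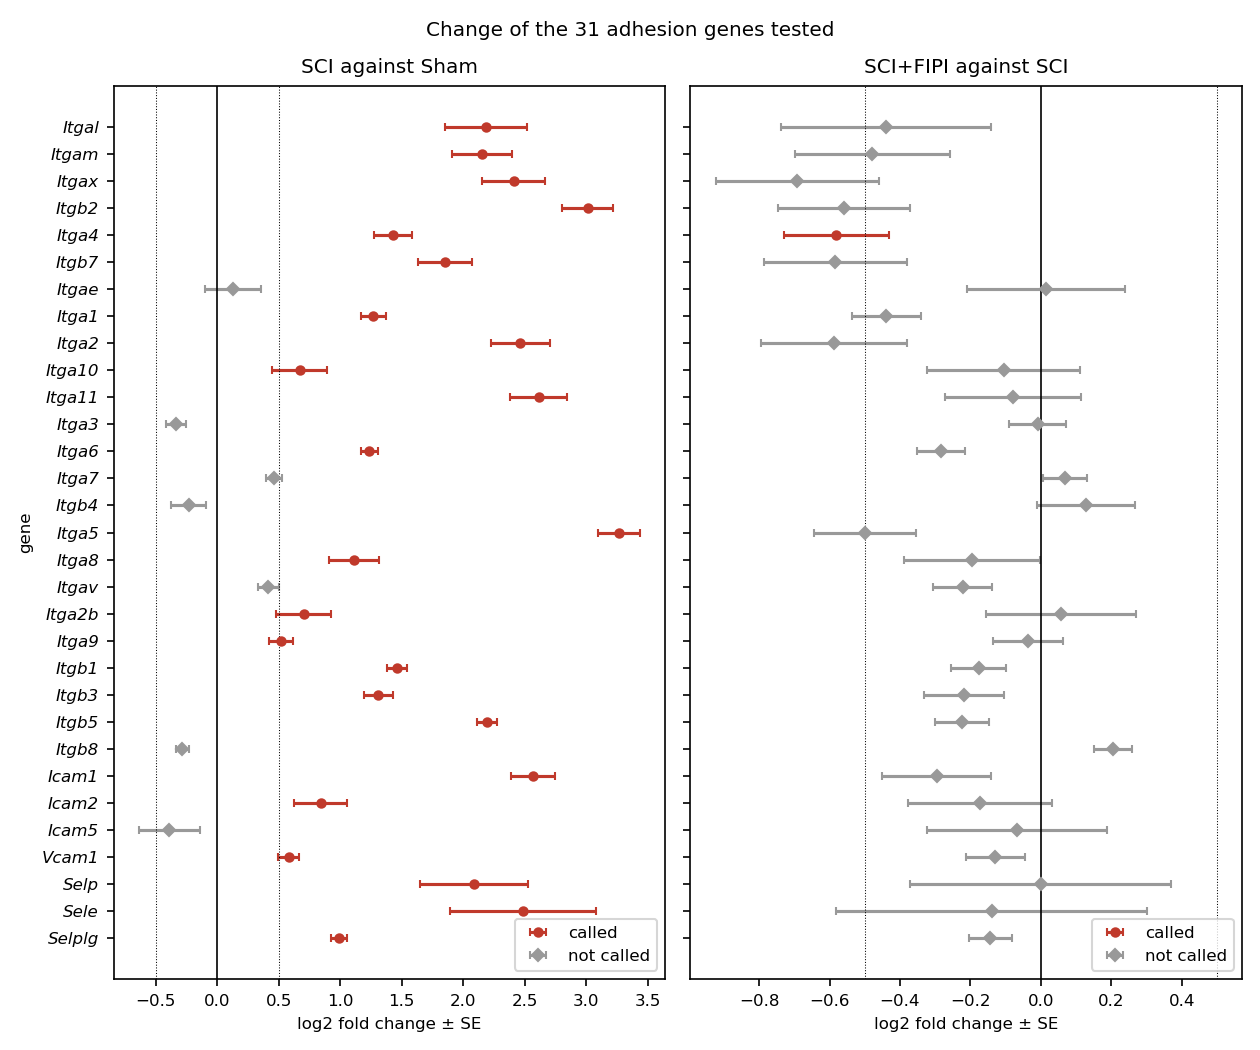
Log2 fold change with its standard error (x axes, with different ranges) for each of the 31 genes tested (y axis), in SCI against Sham on the left and SCI+FIPI against SCI on the right; red points were called and gray ones were not, and dotted lines mark a size of 0.5. On the left 24 genes lie to the right of the upper dotted line, from Itga9 at 0.52 to Itga5 at 3.27, and on the right Itga4 at -0.58 is the red point.

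The beta 2 integrins are the integrins of leukocytes. Itgb2 encodes CD18, the beta chain they share, and it stood at 30.7, 31.7 and 19.7 CPM in the Sham mice, 189, 246 and 227 CPM in the SCI mice, and 174, 133 and 143 CPM in the SCI+FIPI mice. Each SCI mouse was above each SCI+FIPI mouse, and each of these was above each Sham mouse. Itgb2 rose 8.07-fold with injury (adjusted p = 5.33e-06). In SCI+FIPI it was 0.679 of its SCI level, a log2 difference of -0.56 ± 0.19 (SE) that did not pass the test (adjusted p = 0.113).

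Its alpha partners kept the same order of groups. Itgam, which encodes CD11b of the complement receptor Mac-1, was at 10.6, 13.9 and 6.81 CPM in Sham, 39.3, 54.7 and 45.1 CPM in SCI, and 37.2, 31.3 and 31.5 CPM in SCI+FIPI. Itgax, which encodes CD11c, was at 14.0, 10.8 and 6.10 CPM in Sham, 57.1, 56.0 and 50.6 CPM in SCI, and 39.0, 32.3 and 30.2 CPM in SCI+FIPI. Neither gene had overlapping groups in any of the 3 comparisons. Itgal, the alpha chain of LFA-1, was at 2.92, 5.44 and 1.55 CPM in Sham, 13.3, 15.7 and 16.0 CPM in SCI, and 11, 10.7 and 11.5 CPM in SCI+FIPI. All of them rose with injury, Itgax 5.32-fold, Itgal 4.54-fold and Itgam 4.45-fold, with adjusted p-values of 7.74e-05, 0.000416 and 8.36e-05. None passed the test between SCI+FIPI and SCI, where the log2 differences were -0.69 ± 0.23 for Itgax, -0.48 ± 0.22 for Itgam and -0.44 ± 0.30 for Itgal (SE; adjusted p = 0.114, 0.23 and 0.409).

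Per length, the beta 2 chain was far more abundant than its listed partners. In SCI, FPKM was 71.3 ± 9.20 (SD, n = 3) for Itgb2, 11.2 ± 0.709 for Itgax, 9.11 ± 1.498 for Itgam and 2.25 ± 0.221 for Itgal. The level of Itgam depends on the length used. Its exons overlap those of a gene model on the same strand, Gm49368, over 68.7% of their length, and that model holds at most 3 counts in any mouse. Over the unshared 1574 bases, Itgam was at 29.1 ± 4.78 FPKM in SCI and above Itgax. The order of these 2 genes per length is therefore unsettled. The fourth partner, Itgad, was named after its values were seen. It was between 0.124 and 1.57 CPM in the 9 mice and was highest in SCI+FIPI 2, SCI+FIPI 3 and Sham 2, the mice with the most neutrophil granule RNA.

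**Figure D2:**
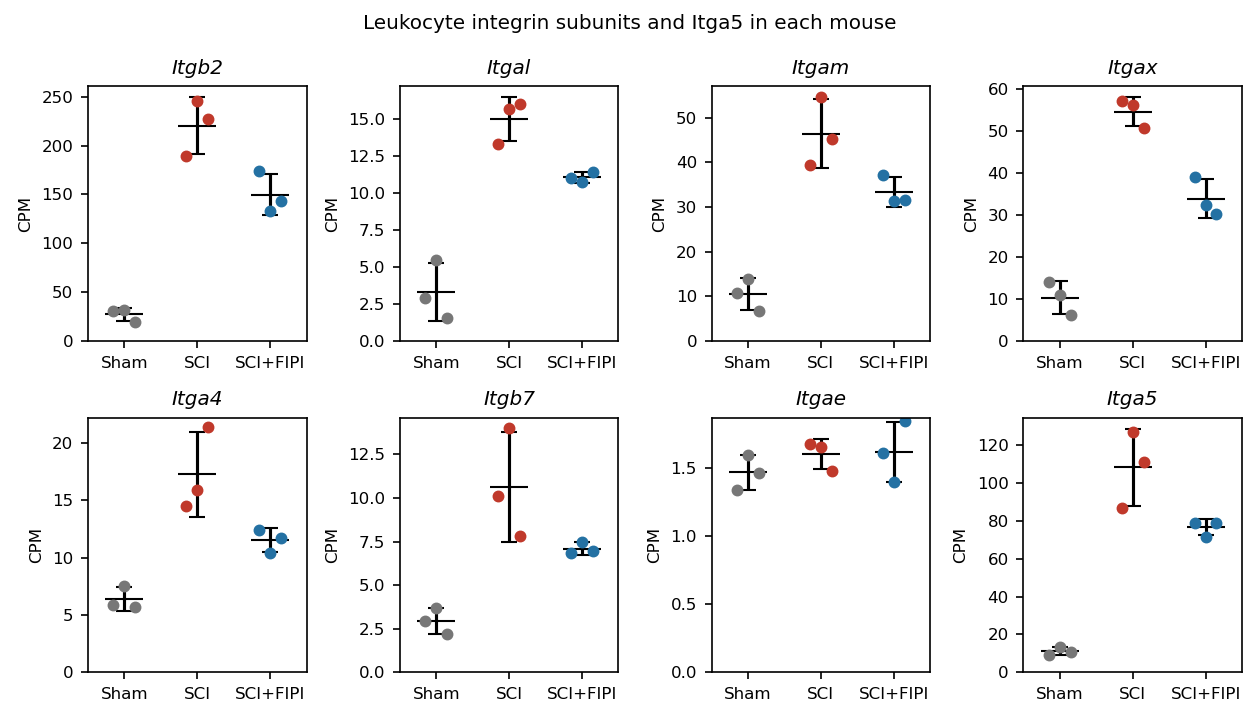
CPM (y axes, from 0) of the 7 leukocyte integrin subunits and Itga5 by group (x axes); points are mice, the wide dash is the mean and the bars are 1 SD. In every panel except Itgae the SCI points lie above the SCI+FIPI points, and these above the Sham points.

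The alpha 4 integrins bind VCAM-1 and fibronectin and, with beta 7, the mucosal addressin. Itga4 was at 5.89, 7.56 and 5.73 CPM in Sham, 14.5, 15.8 and 21.4 CPM in SCI, and 12.4, 10.4 and 11.7 CPM in SCI+FIPI. The groups did not overlap, and SCI 3 was the highest mouse. Itga4 rose 2.69-fold with injury (adjusted p = 1.76e-06) and was 0.669 of that level with FIPI, a log2 fold change of -0.58 ± 0.15 (SE; adjusted p = 0.0271). The call was lost without SCI 2 (adjusted p = 0.0523), SCI 3 (0.123), SCI+FIPI 2 (0.135) or SCI+FIPI 3 (0.0725), and the log2 fold change then lay between -0.64 and -0.40. Without all 3 mice rich in granule RNA, it was -0.47, a fit that leaves SCI+FIPI with 1 mouse, assumed to vary like the other groups, and says little about the call. About 8.04% of the exonic length of Itga4 lies inside exons of Cerkl on the opposite strand.

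Itgb7, the partner of Itga4 and Itgae, was at 2.92, 3.71 and 2.22 CPM in Sham, 10.1, 14.0 and 7.81 CPM in SCI, and 6.84, 7.50 and 6.96 CPM in SCI+FIPI. It rose 3.61-fold with injury, and the SCI mice spread widely. With FIPI it differed from SCI by -0.58 ± 0.20 (log2, SE) without passing the test (adjusted p = 0.0906). Itgae encodes CD103, known from tissue-resident T cells and some dendritic cells. It lay between 1.34 and 1.85 CPM in the 9 mice, with overlapping groups, and was not called in any comparison.

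General leukocyte genes were also higher in SCI than in Sham, and their sum was lower in SCI+FIPI than in SCI. The sum of 10 genes that leukocytes share, such as Ptprc, Spi1 and Laptm5, was 288, 297 and 216 CPM in Sham, 1693, 1810 and 2005 CPM in SCI, and 1543, 1271 and 1358 CPM in SCI+FIPI. All 10 were called higher with injury, and 2 were called lower with FIPI, Spi1 among them. Spi1, which encodes the myeloid transcription factor PU.1, had a log2 fold change of -0.52 ± 0.12 (SE; adjusted p = 0.0251). Laptm5 and Lcp1, highest of the list in mean CPM, which is not scaled to length, had -0.38 and -0.45 and missed the fold limit. The call of Spi1 was lost without SCI 2, SCI 3 or any one of the SCI+FIPI mice, with upper-quartile factors and with the replicate block.

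Set against that sum, the leukocyte subunits of SCI+FIPI mice did not separate from those of SCI mice. The log2 ratio to the summed leukocyte genes differed by -0.03 for Itgal, -0.07 for Itgam, -0.29 for Itgax, -0.16 for Itgb2, -0.16 for Itga4 and -0.14 for Itgb7. All 6 overlapped between the groups, with exact two-sided permutation p between 0.2 and 1.0, where 0.1 is the smallest that 3 mice against 3 allow. Between SCI and Sham the ratios went different ways. That of Itgb2 was 0.24 higher, while those of Itgam, Itga4 and Itgb7 differed by -0.595, -1.371 and -0.951, each with no overlap between the groups. Macrophage markers went from 176 to 289 CPM in sum in Sham to 5166 to 6332 CPM in SCI and 3667 to 4940 CPM in SCI+FIPI, and microglia markers from 513 to 649 CPM to 1685 to 2003 CPM and 1477 to 1551 CPM. Lyz2 made up most of the macrophage sum in the injured mice, at 4529 CPM on average in SCI and 3396 CPM in SCI+FIPI. It was not called with FIPI (adjusted p = 0.29 in edgeR). No gene of either list of 10 was at 0 in all mice. The part of cell number in the changes of integrin RNA was not tested.

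**Figure D3:**
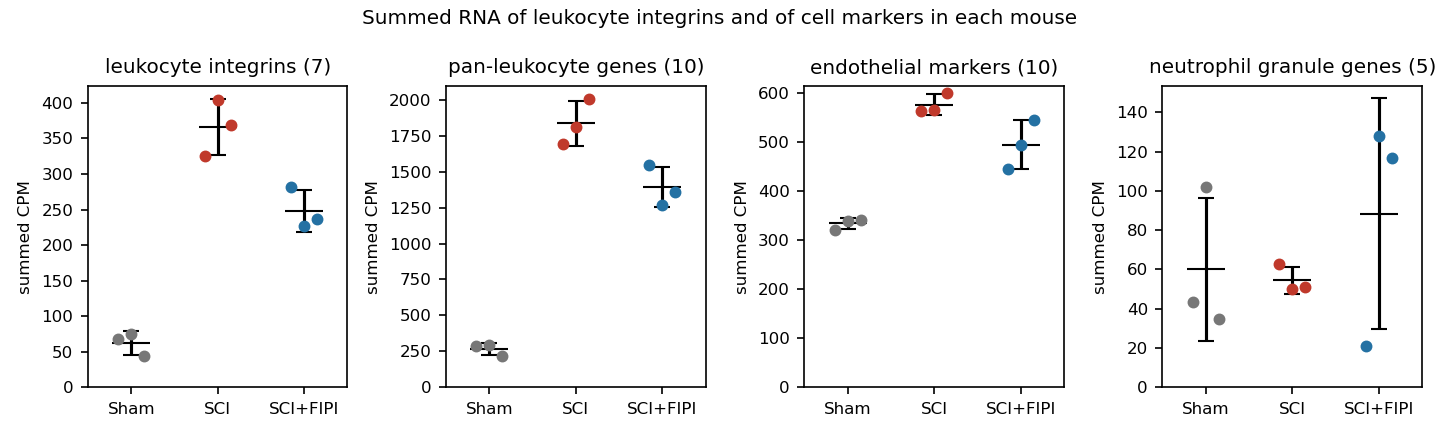
Summed CPM (y axes, from 0) of the 7 leukocyte integrin subunits, 10 pan-leukocyte genes, 10 endothelial markers and 5 neutrophil granule genes by group (x axes); points are mice, the wide dash is the mean and the bars are 1 SD. The first 3 sums are lowest in Sham and highest in SCI, and the granule genes are highest in SCI+FIPI 2, SCI+FIPI 3 and Sham 2.

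On the vessel side, Icam1 changed most. It encodes ICAM-1, the ligand of LFA-1 and Mac-1, and was at 7.52, 6.44 and 4.85 CPM in Sham, 30.8, 34.4 and 45.8 CPM in SCI, and 32.1, 28.2 and 30.1 CPM in SCI+FIPI. It rose 5.92-fold with injury (adjusted p = 2.62e-07), and SCI and SCI+FIPI overlapped, with a log2 difference of -0.30 ± 0.16 (SE; adjusted p = 0.272). Vcam1, the ligand of VLA-4, was at 27.4, 31.4 and 25.1 CPM in Sham, 38.8, 44.2 and 42.8 CPM in SCI, and 38.0, 36.9 and 40.01 CPM in SCI+FIPI. Its rise with injury was 1.498-fold (adjusted p = 2.46e-05). Icam2, a constitutive ICAM of endothelium, rose 1.79-fold, from 2.84 ± 0.387 to 5.10 ± 1.03 CPM (SD, n = 3).

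Endothelial markers rose as well, from 334 ± 11.01 CPM in sum in Sham to 577 ± 20.8 CPM in SCI and 495 ± 50.4 CPM in SCI+FIPI (SD, n = 3). Of the 10, 8 were called higher with injury, and with FIPI edgeR, DESeq2 and limma-voom called 0 in either direction. At the p limit alone 2 were lower and 0 higher with FIPI, beside 3.58% lower and 6.04% higher over all genes tested. At an unadjusted p under 0.05, 3 were lower and 0 higher. All 10 point estimates with FIPI were below 0, as were those of 9407 of all 18699 genes tested. Cldn5, a tight junction protein of brain and spinal cord vessels, rose by 1.13 on the log2 scale with injury, while Flt1, a VEGF receptor, was 0.29 lower and missed the fold limit. With FIPI, Cldn5 differed from SCI by -0.42 ± 0.09 (SE) on the log2 scale (adjusted p = 0.0137), under the fold limit. It was called lower without SCI+FIPI 3 (log2 -0.52). Relative to that sum, Icam1 was 1.78 higher on the log2 scale in SCI than in Sham, with no overlap between the groups (exact two-sided permutation p = 0.1, the smallest possible). The same ratio differed by 0.05 for Icam2 and by -0.20 for Vcam1, with overlapping groups. ICAM-1 is also made by astrocytes and myeloid cells, and whether its RNA came from vessels was not tested.

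E-selectin and P-selectin are the endothelial selectins, and P-selectin is also stored in platelets. Their RNA was scarce. Sele had 2, 2 and 3 counts in the Sham mice, 13, 8 and 22 counts in the SCI mice, and 13, 8 and 17 counts in the SCI+FIPI mice. Selp had 5, 10 and 5 counts in Sham, 22, 25 and 44 counts in SCI, and 18, 35 and 36 counts in SCI+FIPI. Every injured mouse was above every Sham mouse for both genes, and SCI and SCI+FIPI overlapped. Sele rose 5.59-fold (log2 fold change 2.48 ± 0.59, SE; adjusted p = 0.00185) and Selp 4.26-fold (2.09 ± 0.44; adjusted p = 0.000666). With counts this low, the SE between SCI+FIPI and SCI was 0.44 for Sele and 0.37 for Selp, and a difference of the size seen for Itga4 was not detectable.

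Selplg, whose product carries the selectin ligand on leukocytes and microglia, was at 42.1, 39.6 and 36.6 CPM in Sham, 79.2, 78.8 and 76.7 CPM in SCI, and 70.4, 73.9 and 68.1 CPM in SCI+FIPI. It rose 1.98-fold with injury, less than Itgb2. Against the summed leukocyte genes its log2 ratio was 1.80 lower in SCI than in Sham, with no overlap. With FIPI it differed from SCI by -0.14 ± 0.06 (SE; adjusted p = 0.161), although the groups did not overlap.

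**Figure D4:**
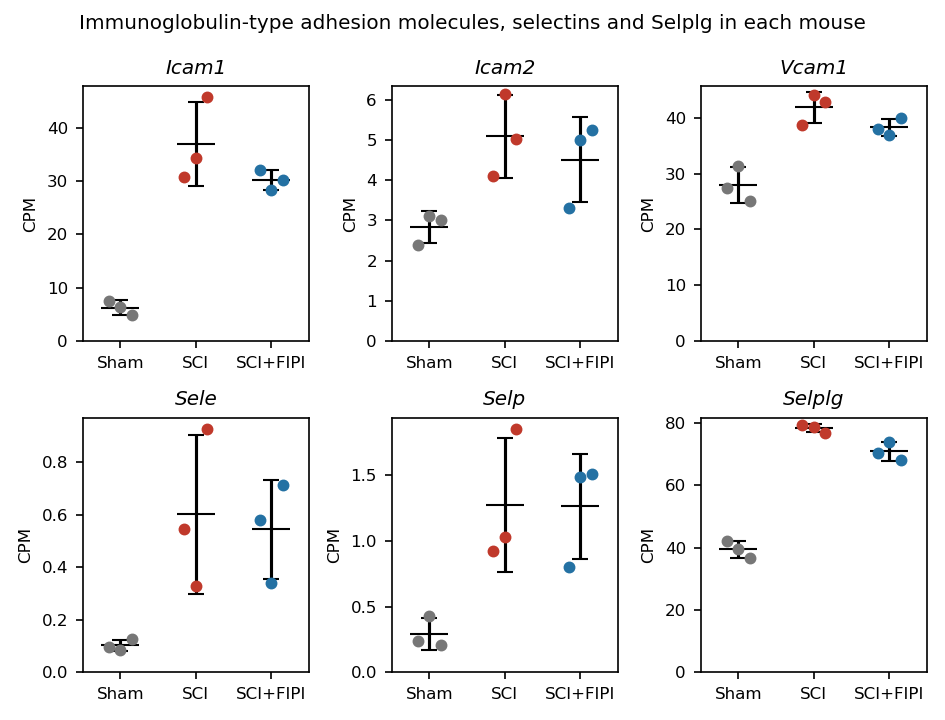
CPM (y axes, from 0) of Icam1, Icam2, Vcam1, Sele, Selp and Selplg by group (x axes); points are mice, the wide dash is the mean and the bars are 1 SD. Every injured mouse lies above every Sham mouse in each panel, and SCI and SCI+FIPI overlap in all panels except Selplg.

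The integrins of matrix adhesion changed unequally. Itga5, the alpha chain of the fibronectin receptor, was at 9.34, 13.5 and 10.7 CPM in Sham, 86.5, 127 and 110.7 CPM in SCI, and 78.9, 71.6 and 79.0 CPM in SCI+FIPI. That is a rise of 9.64-fold with injury (adjusted p = 1.64e-07). With FIPI it was 0.707 of the SCI level (log2 -0.50 ± 0.15, SE; adjusted p = 0.0665), with no overlap and no call. Its partner Itgb1, the beta chain shared by most matrix receptors, was at 116, 145 and 139 CPM in Sham, 341, 379 and 384 CPM in SCI, and 335, 321 and 321 CPM in SCI+FIPI, a rise of 2.76-fold. The log2 ratio of Itga5 to Itgb1 was therefore 1.80 higher in SCI than in Sham, and 0.31 lower in SCI+FIPI than in SCI, with no overlap in either case (exact two-sided permutation p = 0.1, the smallest possible).

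The collagen receptors rose too, all 4 of them. Itga11, an integrin of fibroblasts, went from 2.25 to 2.88 CPM in Sham to 11.7 to 18.3 CPM in SCI, 6.11-fold. Itga2 went from 0.864 to 1.88 CPM to 6.08 to 7.38 CPM, 5.52-fold. Itga1 rose 2.41-fold and Itga10, known from cartilage, 1.59-fold. Itga10 was the least stable of the 4, and its call was lost without Sham 1, Sham 2, SCI 1 or SCI 3 (log2 0.45 to 0.68) and with offsets for GC content and length (0.42). Under FIPI, Itga1 was at 24.4, 23.2 and 22.3 CPM against 27.4, 35.1 and 32.4 CPM in SCI, a log2 difference of -0.44 ± 0.10 (SE; adjusted p = 0.0146) that missed the fold limit. Itga2 differed by -0.59 ± 0.21 (adjusted p = 0.0892), and Itga11 overlapped between SCI and SCI+FIPI. The RNA of fibroblast and pericyte markers, at 7115 to 9499 CPM in sum in SCI and 6509 to 8119 CPM in SCI+FIPI, overlapped between these groups, and was 474 to 914 CPM in Sham. Col1a1 and Col3a1 make up most of that sum in the injured mice, and Rgs5, a pericyte marker in it, was called lower with FIPI (log2 -0.51 ± 0.08, SE; adjusted p = 0.00412).

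Laminin receptors behaved differently from the collagen receptors. Itga6 was the only one of the 4 called higher with injury, from 67.9, 66.8 and 65.1 CPM in Sham to 142, 165 and 165 CPM in SCI (2.36-fold). In SCI+FIPI it was at 139, 126 and 123 CPM, 0.28 ± 0.07 (log2, SE) below SCI, past the p limit (adjusted p = 0.021) and under the fold limit. Itga3 was lower after injury, at 48.8 to 57.4 CPM in SCI against 58.4 to 69.7 CPM in Sham (log2 -0.33, adjusted p = 0.00188), under the fold limit. It passed that limit with offsets for GC content and length (log2 -0.53). Itga7 was 0.46 higher on the log2 scale, also under the limit, and Itgb4, the hemidesmosome chain that Schwann cells carry too, was at 72.4 to 88.6 CPM in SCI and 92.4 to 94.0 CPM in Sham (adjusted p = 0.173). Schwann cell markers were 1151 to 1481 CPM in sum in Sham, 1201 to 1419 CPM in SCI and 1005 to 1746 CPM in SCI+FIPI, highest in SCI+FIPI 2 and SCI+FIPI 3. Within SCI+FIPI, Itgb4 was at 92.7 and 101 CPM in these mice and at 66.6 CPM in SCI+FIPI 1. The part of nerve root tissue in this was not tested.

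The alpha v family binds RGD sites in vitronectin, fibronectin and latent TGF-beta. Itgav itself was at 118 to 129 CPM in Sham and 151 to 177 CPM in SCI, a log2 rise of 0.42 that missed the fold limit. Its beta partners went separate ways. Itgb5 was at 118, 104 and 94.2 CPM in Sham, 472, 472 and 501 CPM in SCI, and 431, 387 and 419 CPM in SCI+FIPI, a rise of 4.57-fold (adjusted p = 5.19e-11). Itgb3, which pairs with alpha v and with the platelet chain alpha IIb, rose 2.48-fold. Itgb8, an activator of latent TGF-beta that astrocytes carry, was at 147, 141 and 148 CPM in Sham, 123, 117 and 118 CPM in SCI, and 138, 133 and 142 CPM in SCI+FIPI. It was 0.28 ± 0.05 lower with injury and 0.21 ± 0.05 higher with FIPI (log2, SE; adjusted p = 0.000278 and 0.028), both under the fold limit and with no overlap. Among the 31, it was the 1 gene higher with FIPI at the p limit alone, where 6.04% of all genes were higher and 3.58% lower, and 3 members were lower, Itga1, Itga4 and Itga6.

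Itga2b, the platelet chain alpha IIb, rose 1.63-fold with injury, from 4.72 ± 1.49 to 7.70 ± 0.416 CPM (SD, n = 3). The call was lost without Sham 1 or Sham 3 and with offsets for GC content and length (log2 0.4954, adjusted p = 0.056 in edgeR). It was highest in SCI+FIPI 3, at 10.2 CPM. Itga8 rose 2.16-fold from 2.59 CPM, and Itga9, which binds tenascin C and VCAM-1, rose 1.43-fold. Its call was lost without Sham 1, Sham 2 or SCI 1, with a log2 fold change of 0.46 to 0.49 then, and also with upper-quartile factors (0.455) and with offsets for GC content and length (0.40). Itgb6, the epithelial partner of alpha v, had 0 to 8 counts per mouse and could not be tested.

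Because the beta chains moved unequally, their proportions shifted. Per length, Itgb1 made up 32.5% ± 3.90 of the summed FPKM of the 8 beta chains in Sham, Itgb5 29.5% ± 2.95, Itgb4 13.3% ± 0.625, Itgb8 13.1% ± 0.807 and Itgb2 8.89% ± 1.89 (SD, n = 3). In SCI, Itgb5 held 41.4% ± 1.81, Itgb1 27.5% ± 0.416, Itgb2 21.98% ± 1.93, and Itgb4 and Itgb8 3.47% ± 0.543 and 3.30% ± 0.255. In SCI+FIPI, the share of Itgb2 was 17.8% ± 1.74 and that of Itgb8 4.52% ± 0.171. Over the alpha chains, Itga3 and Itgav led in Sham with 22.9% and 23.2%, and Itga5 went from 4.52% in Sham to 19.9% in SCI. These alpha shares depend on the length used. Over unshared exonic length, Itgam held 22.1% in SCI instead of 8.39%, and Itga5 16.4%, so the leading alpha chain in SCI is unsettled. Itgb5 was the most abundant member per length in SCI, at 134 ± 4.804 FPKM, before Itgb1 at 89.0 ± 5.65 FPKM and Itgb2.

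**Figure D5:**
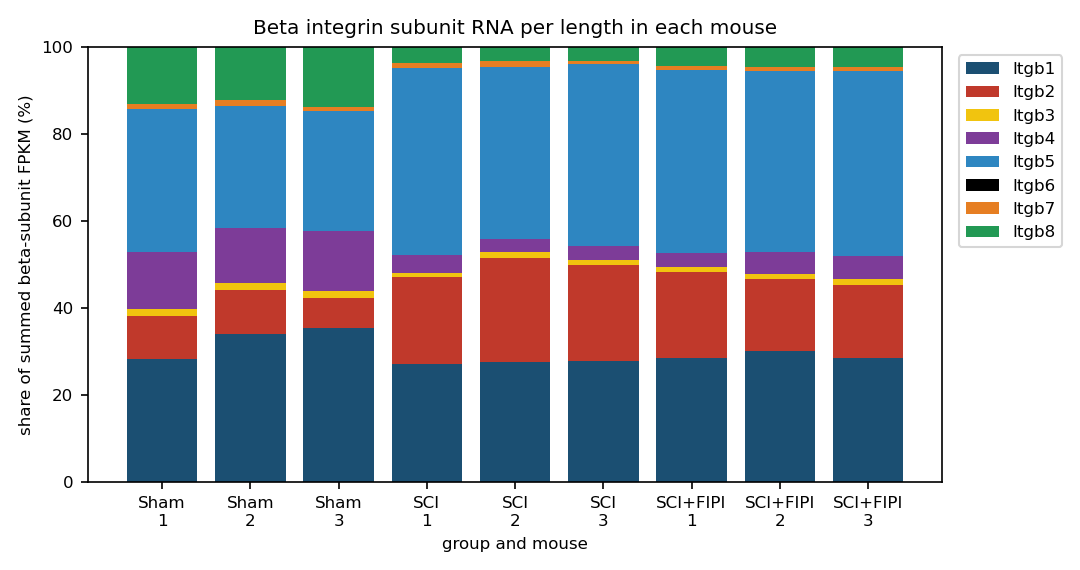
Share of each beta chain in the summed FPKM of the 8 beta chains (y axis, percent) in each of the 9 mice (x axis); colors are genes. Itgb2 takes 21.98% on average in SCI and 8.89% in Sham, and Itgb4 and Itgb8 shrink from 13.3% and 13.1% to 3.47% and 3.30%.

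Against Sham, 22 of the 31 were called higher in SCI+FIPI and 0 lower, where 21.2% of all genes tested were higher and 17.0% lower. DESeq2 and limma-voom each called 23 higher and 0 lower, and at an unadjusted p under 0.05 there were 26 higher and 1 lower. The largest rises were those of Itga5 (6.82-fold), Itga11 (5.79-fold) and Itgb2 (5.48-fold). Itga9, Itga10 and Vcam1, called in SCI, were not called here, at log2 values of 0.48, 0.57 and 0.45. Itga7, not called in SCI, was called here at 0.53. The call of Icam2 (0.67) was lost without Sham 1, SCI+FIPI 2 or SCI+FIPI 3, that of Itga2b (0.76) without SCI+FIPI 3, and that of Itga7 without Sham 3 or SCI+FIPI 3. This comparison shares the Sham mice with SCI against Sham, and the values stand side by side only. Between SCI+FIPI and SCI, 13 of the 31 had each SCI+FIPI mouse below each SCI mouse, 41.9% of them, and 2 had each above. Over all genes tested, 14.5% were below and 15.7% above in this way. Of the 13, 6 were leukocyte subunits.

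Of the other genes of the adhesion cascade and transmigration, 31 of 32 were tested. With injury 17 were called higher and 2 lower, and with FIPI 0 were called by edgeR. At the p limit alone 3 were lower and 1 higher with FIPI, beside 3.58% lower and 6.04% higher over all genes tested. At an unadjusted p under 0.05, 12 were lower and 1 higher. DESeq2 and limma-voom each called 1 lower, Vav1, an exchange factor of leukocytes, named after its values were seen. Highest in mean CPM were Sirpa, a myeloid receptor for CD47 (190 ± 11.9 CPM in Sham, 594 ± 46.0 CPM in SCI and 473 ± 42.9 CPM in SCI+FIPI, SD, n = 3), and Msn, the cytoskeletal linker moesin (156 ± 14.4, 563 ± 53.1 and 437 ± 43.9 CPM). Sirpa and Msn differed between SCI+FIPI and SCI by -0.33 and -0.36 on the log2 scale (adjusted p = 0.0211 and 0.0245), under the fold limit.

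Genes that activate integrins or build the adhesion complex numbered 39, of which 37 were tested. With injury 22 were called higher and 3 lower. With FIPI, 1 was called higher, Rasgrp1, an activator of Ras and Rap, at 2.33 ± 0.539 CPM in SCI and 3.95 ± 1.09 CPM in SCI+FIPI (log2 0.76 ± 0.22, SE; adjusted p = 0.0463), against 8.16 ± 1.08 CPM in Sham. Its call was kept in 2 of the 9 fits that left out a mouse and by DESeq2, and was lost with limma-voom (adjusted p = 0.0772), with the replicate block (0.0609) and with the 2 groups alone (0.0689). At the p limit alone, 13 of the 37 were lower and 2 higher with FIPI, beside 3.58% lower and 6.04% higher over all genes tested. The sizes were under 0.5 for all of these members of the list except Rasgrp1. The tetraspanins Cd63 and Cd81, partners of integrins in the membrane, were highest in mean CPM. Cd63 rose by 2.08 on the log2 scale with injury and was 0.34 lower with FIPI (adjusted p = 0.0307), and Cd81 differed by 0.26 with injury and by -0.01 with FIPI, neither past the fold limit. Ilk, the integrin-linked kinase, had 0 to 9 counts, and 89.7% of its exonic length lies inside exons of other genes.

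Among the 3 pathway lists, extracellular ligands had the highest median log2 fold change with injury, 2.496. Of 34 genes listed, 33 were tested, and 30 were called higher and 1 lower with injury. Spp1, which encodes osteopontin, a ligand of alpha v and alpha 4 integrins, went from 127 ± 19.4 CPM in Sham to 5008 ± 559 CPM in SCI and 3007 ± 1129 CPM in SCI+FIPI (SD, n = 3). Col1a1, a chain of fibrillar collagen, went from 181 ± 80.5 to 4811 ± 889 and 3913 ± 712 CPM. Neither passed edgeR's test with FIPI (adjusted p = 0.141 and 0.679), but Spp1 was called lower by limma-voom (log2 -0.79, adjusted p = 0.0308) and without SCI+FIPI 1 (-1.075, adjusted p = 0.00597). The 2 ligands called lower with FIPI were the basement membrane chains Col4a1 (log2 -0.73 ± 0.17, SE; adjusted p = 0.0361) and Col4a2 (-0.62 ± 0.12; adjusted p = 0.0121). Col4a1 kept its call in 4 of the 9 fits that left out a mouse and Col4a2 in 7.

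Several members lie side by side in the genome (GRCm38 positions from GENCODE M21). Itgam (chr7:128062640-128118491) ends 11.1 kb before Itgax (chr7:128129547-128150657), both on the plus strand. Itga2 (chr13:114833081-114932100) ends 20995 bases from Itga1 (chr13:114953096-115101964), both on the minus strand. Sele (chr1:164048234-164057677) lies 57.6 kb before Selp (chr1:164115264-164150026). In each of these 3 cases both neighbors were called higher with injury, as were 24 of the 31 members tested (77.4%). Nothing about position is read from this. Icam1 (chr9:21015985-21028817), Icam4 (chr9:21029373-21030595) and Icam5 (chr9:21032073-21039036) follow each other within 1.48 kb gaps. Icam5, the telencephalic ICAM of neurons, was at 1.63 to 2.505 CPM in Sham and 1.36 to 1.73 CPM in SCI and was not called, while Icam1 next to it rose 5.92-fold.

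Icam4, an ICAM of red blood cells, was listed at 0 in all 9 mice. All of its exonic length, 1110 bases, lies inside exons of Gm47079, an antisense gene model with 0 to 3 counts. Of 46 protein-coding genes with at least 95% of their exonic length inside exons on the opposite strand and none on the same, 38 (82.6%) were listed at 0 in all mice, against 17.8% of 15575 with no exonic overlap. A 0 at Icam4 therefore cannot be told apart from reads that were not counted. Exons of other gene models also cover 11.7% of Icam1, 30.8% of Icam5, 33.5% of Itga10 and 14.1% of Selp, so the levels of these genes per length are uncertain.

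Promoters of 23 of the 33 members were found in the RefSeq table of GRCm38.p6, taken here as the 250 bases before the start of transcription. Those of Icam1, Sele, Selp and Itgam are shown as examples, and each holds a match to a run named below. NF-kappa B is the known activator of the selectin and ICAM genes in inflamed endothelium, and PU.1 that of Itgam in myeloid cells. Capitals mark a kappa B-like run, GGNNNTTCC, or the PU.1 core, GAGGAA, on either strand. All 4 lie on the plus strand.
Icam1, chr9:21015690-21015939: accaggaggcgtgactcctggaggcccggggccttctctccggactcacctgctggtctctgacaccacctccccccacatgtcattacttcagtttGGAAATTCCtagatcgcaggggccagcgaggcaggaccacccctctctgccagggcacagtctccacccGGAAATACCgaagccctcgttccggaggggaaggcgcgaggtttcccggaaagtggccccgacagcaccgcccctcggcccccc
Sele, chr1:164047984-164048233: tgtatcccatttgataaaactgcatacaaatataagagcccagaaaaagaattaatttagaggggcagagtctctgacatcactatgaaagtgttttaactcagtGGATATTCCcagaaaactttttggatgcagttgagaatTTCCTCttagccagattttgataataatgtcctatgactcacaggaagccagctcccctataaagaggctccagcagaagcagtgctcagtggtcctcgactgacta
Selp, chr1:164115014-164115263: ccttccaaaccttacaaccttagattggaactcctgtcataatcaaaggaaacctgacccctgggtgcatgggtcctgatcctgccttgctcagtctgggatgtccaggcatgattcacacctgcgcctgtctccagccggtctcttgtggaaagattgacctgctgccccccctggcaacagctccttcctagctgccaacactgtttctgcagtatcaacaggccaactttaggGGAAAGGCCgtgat
Itgam, chr7:128062390-128062639: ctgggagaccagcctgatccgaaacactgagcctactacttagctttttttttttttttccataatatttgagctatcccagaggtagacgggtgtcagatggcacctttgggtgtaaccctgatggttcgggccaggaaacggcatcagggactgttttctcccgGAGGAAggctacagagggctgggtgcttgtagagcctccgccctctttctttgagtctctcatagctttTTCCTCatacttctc
The kappa B-like run begins 153 and 84 bases before the start of Icam1, 145 bases before that of Sele and 14 bases before that of Selp, and the PU.1 core 107 bases before that of Sele and 84 and 15 bases before that of Itgam. A kappa B-like run stood in the promoters of 5 of the 23 members, Icam1, Itga5, Itgb1, Sele and Selp, and in 15.7% of all 32851 promoters. The PU.1 core stood in 9 of the 23 and in 23.2% of all promoters. These units differ, since a member counts when any of its promoters matches and the percentages are per promoter. The 23 members have 25 promoters, as Itga3 and Itgb6 have more than 1. Of the 23, 17 were called higher with injury, among them all 5 with a kappa B-like run and 6 of the 9 with a PU.1 core, so nothing particular to either run is read from these counts. The promoters of Itgax, Itga1, Itga2, Itga4, Itga8, Itga9, Itga10, Itgb5 and Itgb7, also called higher with injury, held neither run. Short runs of this kind occur often, and a match was not tested for binding.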

How the data were processed

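Poly(A) RNA of spinal cord was sequenced from 9 mice on day 7. The authors removed low-quality and adapter sequence and deposited raw counts per gene, whole numbers with no normalization, for 52550 Ensembl genes. The submitters' notes name GRCm38 and R 4.2.3. The aligner, the counting program, the annotation and the use of strand are not given in the sources used here. Of the identifiers, 52403 were found in GENCODE M21, all 33 members among them. Total counts per mouse were 20806000 to 24582377.

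Counts were analysed with edgeR 4.0.16 in R 4.3.3, with TMM factors, filterByExpr (18699 genes kept), and a robust quasi-likelihood fit of 1 mean per group to all 9 mice. Benjamini-Hochberg adjustment ran over all genes tested. Limits were a log2 fold change of 0.5 and an adjusted p of 0.05, as the study's methods give them. CPM used TMM-scaled totals, and FPKM was the count over the total and the exonic length. Exact permutation tests used log2 CPM with a prior count of 2, or the log2 ratios as stated. Python 3.11.15, scipy 1.17.1 and matplotlib 3.10.9 were used for promoters and plots. The model was tested on simulated data. Intervals and spreads are over mice, and low counts such as those of Sele limit precision.

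The members and all gene lists were chosen with earlier results of these data known. All 33 members are named, and in 5 further lists (3 of the pathway, pan-leukocyte and endothelial genes) the 4 largest changes among genes called between SCI+FIPI and SCI and the 2 highest mean levels. Other marker lists are given as sums, with Lyz2, Col1a1, Col3a1, Rgs5, Csf3r and the neutrophil granule genes named beside them. Some genes that this rule names are not reported here. Alternatives were RLE and upper-quartile factors, 2 other filters, a replicate block, offsets for GC content and length, fits to 2 groups, DESeq2 1.42.0, limma-voom (limma 3.58.1), leaving out Y-linked, hemoglobin and mitochondrial genes, other fold limits, and each mouse left out. The fit without the 3 mice rich in granule RNA and the unshared exonic length were added after seeing the data.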

Additional observations from a re-analysis of the deposited data

How the results depend on the processing

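Between SCI and Sham, the count of members called higher stayed between 18 and 26 over the alternatives (22 to 24 with a mouse left out), beside 24 as reported. That of members lower, 0 as reported, was 1 with offsets for GC content and length, 1 with those and the replicate block, and 2 with no limit on the fold change. Between SCI+FIPI and SCI, 1 was lower as reported, and the count was 4 with no filter on low counts, 3 with the replicate block, 2 with offsets, 3 with the block and offsets, 4 with the 2 groups alone, 5 with DESeq2, 4 with limma-voom, 3 with no fold limit, 0 with a limit of 1, 0 without the 3 mice rich in granule RNA (which leaves SCI+FIPI with 1 mouse, assumed to vary like the other groups), and 0 to 4 with a mouse left out; with no fold limit 1 was higher. Between SCI+FIPI and Sham, 22 were higher as reported, 14 with a limit of 1 and 19 to 24 with a mouse left out, and 0 were lower as reported, 2 with offsets, 2 with the block and offsets, and 1 with no fold limit. The replicate numbers did not pair the mice, with correlations of same-numbered mice between -0.073 and 0.108. The causes of these shifts were not tested.

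Small log2 differences changed sign. In SCI against Sham, Itgae was -0.11 with offsets, with or without the block (-0.112 and -0.1105). In SCI+FIPI against Sham, offsets without and with the block gave -0.0916 and -0.0929 for Itgae and 0.1126 and 0.1129 for Itgb8, and Itgb4 lay between -0.23 and 0.057 with a mouse left out. In SCI+FIPI against SCI, upper-quartile factors gave 0.012 for Itga3, 0.014 for Cd81 and 0.019 for Selp. Selp was 0.0017 with offsets, 0.0057 with the 2 groups alone, 0.021 with limma-voom and 0.0058 without Y-linked, hemoglobin and mitochondrial genes. Without the 3 mice rich in granule RNA, so with SCI+FIPI 1 alone in its group, Itgb4 was -0.26, Itga2b -0.36 and Icam5 0.043. With a mouse left out, the ranges were -0.093 to 0.11 for Itgae, -0.24 to 0.011 for Itga10, -0.31 to 0.057 for Itga11, -0.045 to 0.069 for Itga3, -0.31 to 0.0038 for Itga8, -0.16 to 0.22 for Itga2b, -0.094 to 0.056 for Itga9, -0.30 to 0.0056 for Icam2, -0.18 to 0.092 for Icam5, -0.18 to 0.37 for Selp, -0.43 to 0.31 for Sele and -0.034 to 0.025 for Cd81. None of these differences was called.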
